A study of Mus musculus with 4 samples.

Results

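The genes described here make up the thyrotropin-releasing hormone (TRH) system and the enzymes that turn peptide hormone precursors into active peptides: Trh, Trhr, Trhde, Pcsk1, Pcsk2, Pcsk1n, Scg5, Cpe, Pam and Furin. They were taken by gene symbol from the probe sets of a whole-transcriptome array, and 9 of the 10 had a named probe set, 1 each, among 22206 gene probe sets in all. Pcsk2 was not analysed here. The set was chosen with the TCQA and control values of these same arrays in view, those of Trh and Pcsk1n among them. The values of the 9 genes are therefore a description, with no test.

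RNA from brain cortex was hybridised to Clariom S mouse arrays. The mice were males of SAMP8, an inbred strain used as a model of early ageing. The animals were caged singly at 7 months of age for 4 months. From 11 months of age the treated mice were given TCQA, a compound that the labels give as an abbreviation, orally at a daily dose of 5 mg/kg for 1 month, and the controls were given MilliQ water. Each group had 2 arrays. The labels do not say whether an array stands for 1 mouse or several, and all 4 arrays are of the SAMP8 strain, so the comparison speaks of treatment within that strain. Every level below is a log2 signal, on which a difference of 1 is a 2-fold change. A level can be compared between arrays for 1 gene, not between genes. In a piece of tissue, fewer cells of a type and less RNA per cell cannot be told apart.

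Across the arrays the signals correlated at 0.991 to 0.993 over genes, and array medians lay between 7.12 and 7.17. Dim signal was marked by the negative controls, whose median was 7.17 to 7.32. Markers of neurons (0 of 15), astrocytes (0 of 10) and oligodendrocytes (0 of 9) had no gene under that mark on all 4 arrays. After Benjamini-Hochberg adjustment limma called 0 of the 22206 probe sets (the lowest adjusted p was 0.697), and at an unadjusted p under 0.05 there were 1386.

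TRH is best known as the hypothalamic peptide that drives release of thyrotropin from the pituitary, and it is also made by neurons in other brain regions, where it acts as a modulator. Its precursor carries several copies of a short progenitor sequence, each flanked by basic residues. In the regulated secretory pathway, prohormone convertases cut at the basic residues, carboxypeptidase E trims the exposed basic residues, glutaminyl cyclase closes the first residue into a ring, and the amidating enzyme converts the last one into an amide. The finished peptide acts on a receptor coupled to Gq proteins and is broken down outside the cell by a membrane peptidase specific to it.

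The largest difference among the 9 genes was that of the hormone precursor. Trh, which encodes the TRH precursor, had log2 signals of 7.54 and 7.89 on the TCQA arrays, against 5.49 and 5.66 on the control arrays. Both TCQA arrays were higher than both control arrays, and the lowest TCQA array lay 1.89 above the highest control array. The group means were 7.71 ± 0.24 and 5.57 ± 0.11 (SD, n = 2 each), a difference of 2.14 (SE 0.20), or 4.41-fold. Among all gene probe sets this was the difference ranked 2 from the top. Both control arrays were under the median of the negative controls. Both TCQA arrays were above that median (7.21 and 7.23) but under the upper quartile of the negative controls, 8.57 on each. Trh was thus near the dim range in both groups, and the size of the fold is uncertain. Leaving out 1 array at a time gave differences of 1.97 to 2.31.

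Pcsk1n encodes proSAAS, a granin-like protein whose processed peptides inhibit the convertase PC1. Its signals were 11.37 and 11.23 with TCQA and 10.45 and 9.86 in control. The groups did not overlap, and the control arrays lay further apart (0.585) than the TCQA arrays (0.145). The means were 11.30 ± 0.10 and 10.15 ± 0.41 (SD, n = 2 each), a difference of 1.15 (SE 0.24), or 2.21-fold. It was 0.85 without control replicate 2, the lower control array, and 1.44 without control replicate 1. All 4 arrays were above the median of the negative controls.

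The promoters of Trh and Pcsk1n are shown because these genes had the clearest separation between groups, both in the same direction. The 250 bases before the start site were taken from RefSeq (build GRCm38.p6), which held entries for 8 of the 10 genes. For Trh the stretch is chr6:92244651-92244900 on the minus strand, and for Pcsk1n it is chrX:7919572-7919821 on the plus strand, both printed 5′ to 3′. Capitals mark matches, on either strand, to TGACG (the core of a cAMP response element), TGACCTCA, AGGTCA (a core motif of nuclear receptor sites, which overlaps TGACCTCA on the other strand) and TATAA.
Trh: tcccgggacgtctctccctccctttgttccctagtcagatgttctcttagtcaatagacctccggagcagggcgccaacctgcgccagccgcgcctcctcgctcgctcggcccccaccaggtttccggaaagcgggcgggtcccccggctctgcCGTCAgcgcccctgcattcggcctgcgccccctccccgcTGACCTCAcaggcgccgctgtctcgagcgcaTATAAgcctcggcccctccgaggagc
Pcsk1n: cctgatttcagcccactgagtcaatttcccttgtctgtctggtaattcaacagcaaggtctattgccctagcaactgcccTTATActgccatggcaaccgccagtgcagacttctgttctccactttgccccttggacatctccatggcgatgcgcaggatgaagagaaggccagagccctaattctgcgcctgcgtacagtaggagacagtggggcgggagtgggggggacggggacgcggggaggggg
The Trh stretch held TGACCTCA beginning 57 bases before the start, a TGACG match on the other strand at 96 bases and TATAA at 26 bases. Of 32851 promoter entries cut to the same length, 1.94% held TGACCTCA, 17.8% TGACG, 14.0% AGGTCA and 22.8% TATAA, each counted on both strands. The Pcsk1n stretch held 1 of these, a TATAA match on the other strand at 170 bases. The entry for Pcsk1 held the full cAMP response element TGACGTCA 78 bases before its start, as 1.55% of entries did, and a further TGACG at 50 bases. That entry starts inside the span RefSeq gives the gene, so the stretch may be transcribed from another start site and is not printed. TGACG also occurred once each for Pcsk2 (34 bases), Furin (126 bases) and Scg5 (175 bases), and TATAA for Furin (23 bases). The groups overlapped for Furin and Scg5, and Pcsk2 had no named probe set. The Furin matches were in its entry 1, and its entry 2 held none of the motifs. The Trhde and Pam entries held none of the motifs. These matches describe letters in the reference sequence and were not tested for binding.

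**Figure D1:**
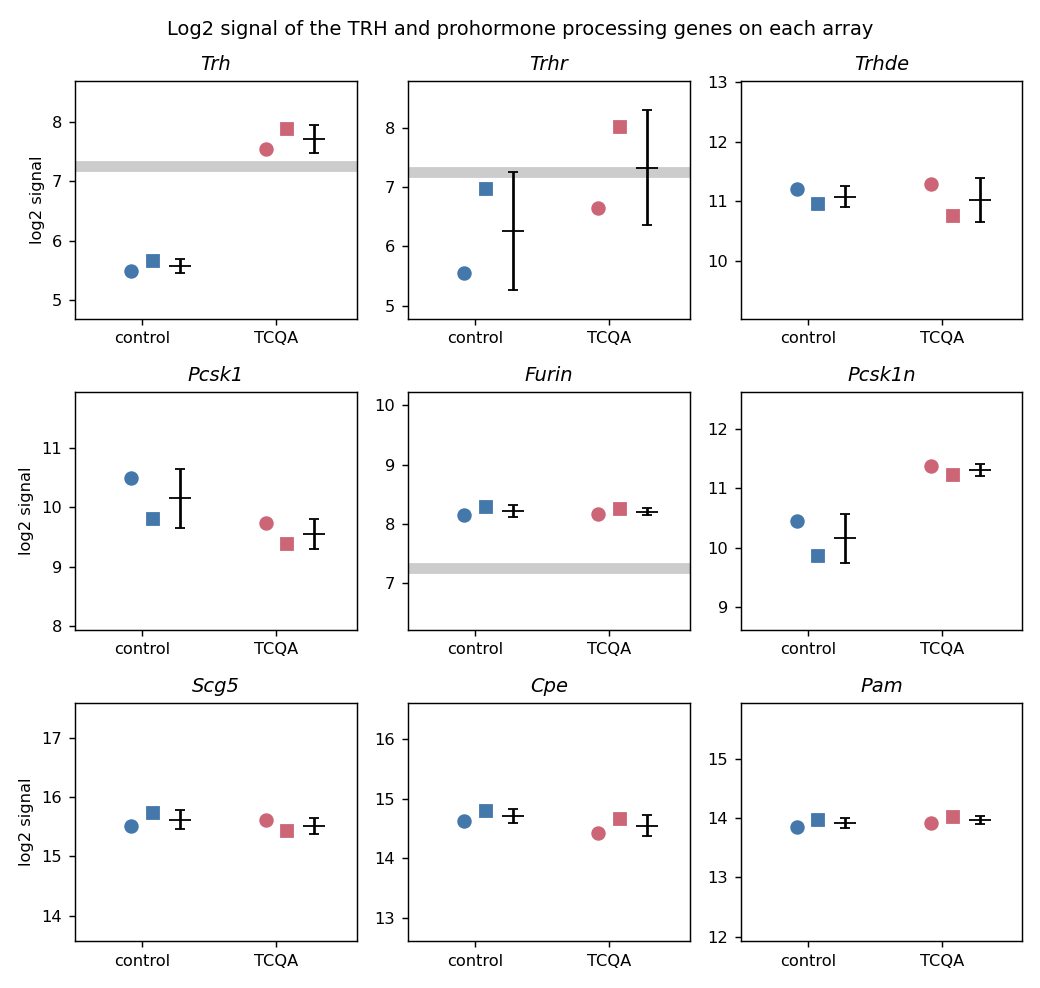
Log2 signal (y axis) of the 9 measured genes on each array, with control arrays in blue and TCQA arrays in red (circle, replicate 1; square, replicate 2). Bars give mean ± SD (n = 2) and the grey band the median of the negative controls (7.17 to 7.32); every panel spans 4 log2 units. Trh and Pcsk1n are the genes with both TCQA arrays above both controls, and Pcsk1 has both below.

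The receptor gene Trhr, which encodes TRH receptor 1, had signals of 6.65 and 8.01 with TCQA, against 5.56 and 6.97 in control. Each group had 1 high and 1 low array, and the groups overlapped. The means were 7.33 ± 0.96 and 6.26 ± 0.99 (SD, n = 2 each), and the difference of 1.07 (SE 0.58) was close to the spread between arrays of a group. Only 0.275% of all gene probe sets had a larger SD within groups than Trhr. The difference was 0.36 without control replicate 1, 0.39 without TCQA replicate 2, 1.75 without TCQA replicate 1 and 1.77 without control replicate 2. TCQA replicate 2 was the 1 array above the median of the negative controls. Trhde, the ectoenzyme that degrades TRH outside the cell, had 11.29 and 10.76 with TCQA and 11.21 and 10.95 in control. The control arrays lay between the TCQA arrays, and the difference was -0.06 (SE 0.24), from -0.32 without TCQA replicate 1 to 0.21 without TCQA replicate 2.

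Of the convertases, Pcsk1 encodes PC1, the enzyme that makes the first cuts in many neuropeptide precursors inside secretory granules. Its signals were 9.74 and 9.38 with TCQA and 10.50 and 9.80 in control. Both TCQA arrays were lower than both controls, but the nearest arrays of the groups were only 0.066 apart. The means were 9.56 ± 0.25 and 10.15 ± 0.49 (SD, n = 2 each), a difference of -0.59 (SE 0.28). It was -0.24 without control replicate 1, the highest array, and -0.94 without control replicate 2. Furin, a convertase of the trans-Golgi network that acts in the constitutive pathway, had 8.17 and 8.25 with TCQA and 8.15 and 8.29 in control. Its groups overlapped, with a difference of -0.01 (SE 0.18).

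The convertase partner and the enzymes that finish a peptide varied little between arrays. Scg5 encodes 7B2, the chaperone of the convertase PC2, and had 15.61 and 15.42 with TCQA and 15.51 and 15.73 in control. Cpe, carboxypeptidase E, had 14.42 and 14.67 with TCQA and 14.62 and 14.80 in control. Pam, the amidating enzyme, had 13.92 and 14.01 with TCQA and 13.85 and 13.97 in control. In all 3 genes the groups overlapped, with differences of -0.10 (SE 0.19), -0.16 (SE 0.19) and 0.05 (SE 0.17). Together with Trhde and Furin, 5 of the 9 genes differed by no more than the median absolute difference over all gene probe sets, 0.170. With 1 array left out, the sign of the difference changed in at least 1 case for Trhde, Furin, Scg5 and Pam, and stayed negative for Cpe (-0.29 to -0.04).

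Counted over the set, 3 of the 9 genes had groups that did not overlap, 2 higher (Trh and Pcsk1n) and 1 lower (Pcsk1) with TCQA. Of all gene probe sets 36.6% did not overlap, 18.9% higher and 17.8% lower. The depositors' criterion, an unadjusted p under 0.05 with a change over 2-fold, was met by 2 of the 9, Trh and Pcsk1n, and by 0.374% of all gene probe sets. Since this contrast chose the genes, nothing is read from these shares. Trhr, the other gene over 2-fold by its means, did not meet the criterion.

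**Figure D2:**
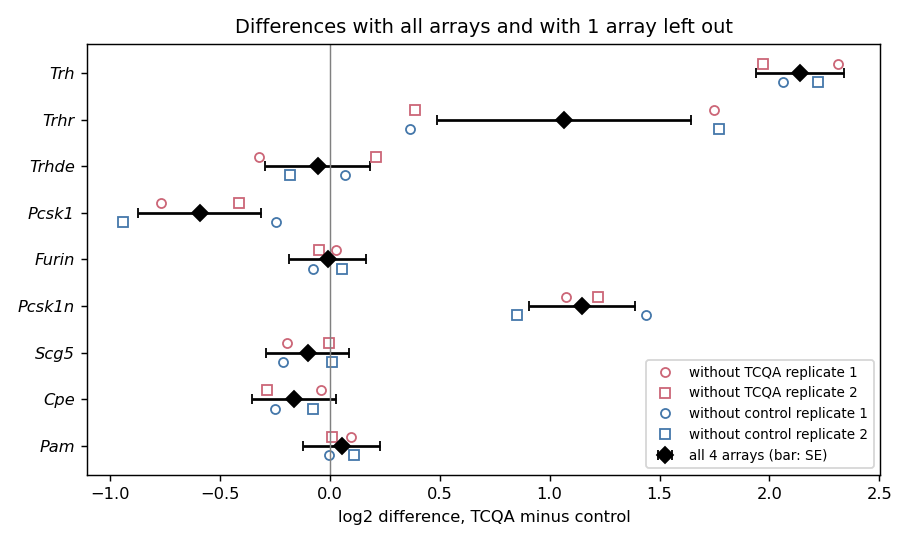
Log2 difference of TCQA minus control (x axis) for each gene, with all 4 arrays (black diamond, bar = SE) and with 1 array left out (open symbols; red, a TCQA array; blue, a control array). Trh stays between 1.97 and 2.31 and Pcsk1n between 0.85 and 1.44, while Trhr ranges from 0.36 to 1.77.

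Markers of neighbouring tissue differed between arrays of the same group. By list mean, hypothalamic and olfactory bulb markers did so most between the TCQA arrays, and choroid plexus markers, given below, between the control arrays. Of 17 hypothalamic markers, TCQA replicate 2 was the highest array for 13 and the lowest for 1. The mean log2 signal of the list was 6.28 there against 5.33 on TCQA replicate 1 and 5.40 and 5.46 in control. Pmch, the precursor of melanin-concentrating hormone from the lateral hypothalamus, was at 10.32 on TCQA replicate 2 and at 5.43 on TCQA replicate 1, with 5.96 and 5.37 in control. Hcrt, the orexin precursor of the same region, was at 6.89 on TCQA replicate 2 and at 5.64 to 5.75 on the other arrays. Avp, the vasopressin precursor, was at 6.91 on TCQA replicate 2 and at 5.13 to 5.36 on the others. Gh, the growth hormone of the pituitary, was at 8.31 on TCQA replicate 2 and at 4.92 on TCQA replicate 1, with 4.60 and 5.40 in control. Of the 17 markers, 15 were under the median of the negative controls on all 4 arrays, Hcrt and Avp among them, as were 7 of 8 pituitary markers. The mean of the pituitary list was 5.85 on TCQA replicate 2 and 5.00 to 5.05 on the other arrays.

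Olfactory bulb markers moved with the other TCQA array: TCQA replicate 1 was the highest for 7 of 9, with a list mean of 8.40 against 7.22 to 7.35. Th, the rate-limiting enzyme of dopamine synthesis, was at 9.42 there and at 7.36 to 7.74 elsewhere. Eomes, a transcription factor of bulb projection neurons, was at 7.87 there and at 4.62 to 5.36 elsewhere. Cdhr1, a cadherin of the same neurons, was at 8.37 there and at 5.66 to 6.82 elsewhere. Trh was higher on both TCQA arrays than on both control arrays, and its difference was 1.97 without TCQA replicate 2 and 2.31 without TCQA replicate 1. On the array where Pmch, Hcrt and Avp were near their control levels, Trh was at 7.54, and on the array where Eomes and Cdhr1 were at their lowest it was at 7.89. Trh was not measured on a TCQA array without one of these signals, so the part of both tissues together in the Trh difference was not tested. Some markers were higher on both TCQA arrays, as Trh was. Calb2, listed for olfactory bulb and thalamus, had 11.26 and 10.87 with TCQA and 9.42 and 9.71 in control. Zic1, listed for thalamus, had 11.22 and 11.79 with TCQA and 8.50 and 10.72 in control. Differences on that list of 12 ran from -0.28 to 1.89, that of Zic1, and 9 genes had a higher mean with TCQA. Ogn, a meningeal fibroblast marker, had 8.45 and 8.92 with TCQA and 6.90 and 7.46 in control. A listing for a region does not show that a gene is made there alone, and the source of the Calb2, Zic1 and Ogn signals was not tested. Pmch, Gh, Th, Eomes, Cdhr1, Calb2, Zic1 and Ogn were picked from their lists after their values were seen.

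**Figure D3:**
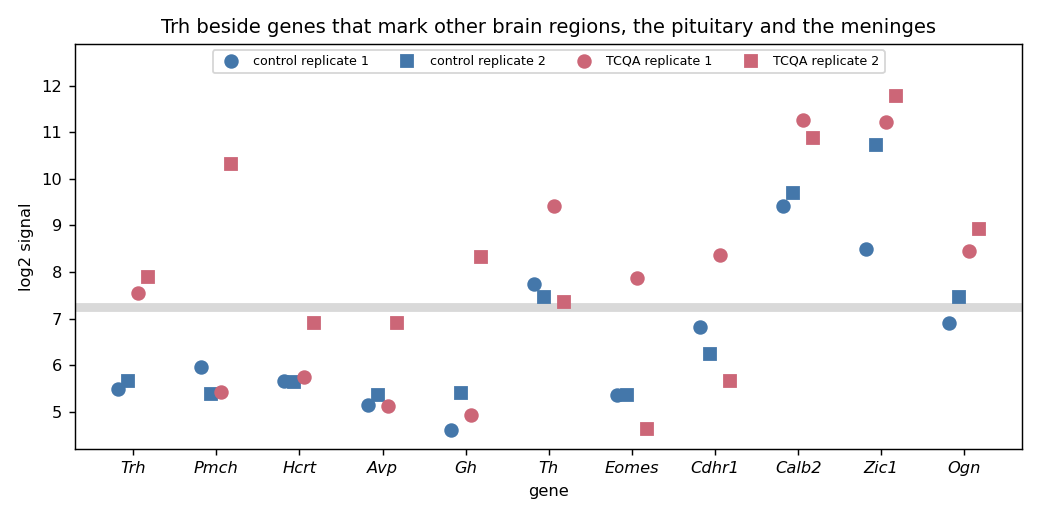
Log2 signal (y axis) of Trh and of genes listed for hypothalamus (Pmch, Hcrt, Avp), pituitary (Gh), olfactory bulb (Th, Eomes, Cdhr1), olfactory bulb and thalamus (Calb2), thalamus (Zic1) and meninges (Ogn) on each of the 4 arrays, with the median of the negative controls as a grey band. Pmch, Hcrt, Avp and Gh have their highest signal on TCQA replicate 2, with Hcrt and Avp under the grey band on all 4 arrays. Th, Eomes and Cdhr1 have theirs on TCQA replicate 1, while Trh, Calb2, Zic1 and Ogn are higher on both TCQA arrays than on both controls.

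At an unadjusted p under 0.05, 0 hypothalamic markers were higher and 1 lower (median difference 0.33), 1 of 9 olfactory bulb markers was higher (median 0.48) and 0 of 8 pituitary markers passed (median 0.35). Other regions and cell types were read in the same way. The median difference was 0.36 for thalamic markers (2 of 12 higher and 0 lower at an unadjusted p under 0.05), 0.04 for hippocampal markers (0 of 10 either way) and -0.06 for striatal markers (0 of 10 either way). TCQA replicate 2 was also the highest array for 8 of the 12 thalamic and 7 of the 10 striatal markers. The striatal list mean was nearly the same on TCQA replicate 2 (12.79) and control replicate 2 (12.78). It was 12.43 on control replicate 1 and 12.21 on TCQA replicate 1, the lowest array for 9 of the 10. Neuron markers had a median of 0.01 (2 of 15 higher), with list means of 13.92 to 14.10 over the arrays. The median was 0.22 for astrocyte, 0.03 for oligodendrocyte, 0.09 for microglia, 0.13 for endothelial, -0.07 for choroid plexus and 0.43 for meningeal fibroblast markers. The choroid plexus median covers a wide gap between the control arrays, with list means of 6.39 on control replicate 1 and 8.27 on control replicate 2, against 7.19 and 7.80 with TCQA. Control replicate 2 had the highest signal for 7 of its 9 markers and control replicate 1 the lowest for 6. Ttr, the transthyretin gene of that epithelium, was at 7.49 on control replicate 1 and 16.42 on control replicate 2. Of these lists, 2 of 10 endothelial and 3 of 10 meningeal genes were higher at an unadjusted p under 0.05. The lowest signal of 8 of the 10 meningeal markers was on control replicate 1, as was that of Trh, Trhr, Furin and Pam. Of these genes, Furin and Pam differed between groups by only -0.01 and 0.05. Control replicate 1 was also the lowest array for 8 of the 12 thalamic and 6 of the 10 astrocyte markers. It was the lowest for 4 of the 15 neuron and 2 of the 10 endothelial markers. The part of these tissues in the levels of the 9 genes was not tested. Immediate early genes, which neurons switch on when active, had a median of -0.43 (-0.20 without control replicate 1 and -0.64 without control replicate 2), with 11 of 32 lower and 0 higher at an unadjusted p under 0.05. For 28 of the 32 the highest signal was on control replicate 1, as it was for Pcsk1.

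In the rest of the TRH axis no gene passed. Of 12 genes for the axis, for the pyroglutamyl enzymes and for Gq signalling, 0 were higher and 0 lower at an unadjusted p under 0.05 (limma, 0 with adjustment over all genes), with a median difference of 0.03 (0.06 to 0.18 with 1 array left out, highest without control replicate 2). Over all gene probe sets 3.38% were higher and 2.86% lower at that level, and the median difference was 0.01. Trhr2, the second TRH receptor of rodents, had 7.53 and 8.01 with TCQA and 7.49 and 7.94 in control, so its groups overlapped. Qpct, the glutaminyl cyclase that closes the ring of TRH, had a mean of 7.86 ± 0.01 on the TCQA arrays and of 7.86 ± 0.55 on the controls (SD, n = 2 each). Pgpep1, the cytosolic pyroglutamyl peptidase, differed by 0.29 (SE 0.25) and was dim on all 4 arrays.

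Among other processing enzymes, 0 of 6 further convertases and related proteases (median 0.16) and 1 of 7 further carboxypeptidases (median 0.20) had an unadjusted p under 0.05. The convertase median was 0.08 without control replicate 1, 0.10 without TCQA replicate 1 and 0.26 without TCQA replicate 2. The carboxypeptidase median was 0.03 without control replicate 1 and 0.06 without TCQA replicate 2. Pcsk7, a membrane-bound convertase, had a difference of -0.48 (SE 0.20) and did not pass. Cpxm2, a carboxypeptidase-like protein without known enzyme activity, differed by 0.83 (SE 0.23) and was dim on all 4 arrays. Granins and proteins of the dense-core vesicle, the organelle in which these precursors are cut and stored, had 2 of 18 higher and 1 lower, with a median of 0.03 (-0.03 without TCQA replicate 2). Rab2b, a small GTPase whose relative Rab2a acts in dense-core vesicle maturation, had 10.70 and 10.45 with TCQA and 9.42 and 9.24 in control. Its difference was 1.24 (SE 0.19), while Rab2a differed by 0.09 (SE 0.19). Slc18a2, the vesicular monoamine transporter, had 7.36 and 7.73 with TCQA and 6.66 and 6.17 in control, a difference of 1.13 (SE 0.24) from a dim control level. Hid1, which acts in vesicle formation at the trans-Golgi network, differed by -0.48 (SE 0.20). The granins themselves differed less: Chga by -0.19 (SE 0.18), Chgb by -0.13 (SE 0.22), Scg2 by 0.21 (SE 0.26) and Vgf by 0.25 (SE 0.19).

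Peptidases that break down neuropeptides had 1 of 15 higher and 1 lower, with a median of -0.02 (-0.22 without control replicate 1 and 0.15 without control replicate 2). Prepl, a relative of prolyl endopeptidase, differed by 0.56 (SE 0.19), and Prep, the prolyl endopeptidase that can also cleave TRH, by -0.17 (SE 0.17). Dpp9, a cytosolic dipeptidyl peptidase, differed by -0.46 (SE 0.18). Of 29 other peptide precursors, the substrates of the convertases, 0 were higher and 1 lower, with a median of -0.03 (-0.07 to 0.04 with 1 array left out). Grp, the gastrin-releasing peptide precursor, was the lower one, at -0.53 (SE 0.17), and was dim on all 4 arrays. The abundant cortical precursors Sst (-0.02, SE 0.18), Npy (-0.18, SE 0.18) and Cck (-0.23, SE 0.24) did not pass. Over these 6 lists, 7 of 87 genes had an unadjusted p under 0.05, or 8.05%, against 6.24% of all gene probe sets. Without TCQA replicate 1 the count was 12. Rab2b and Slc18a2 had been seen to differ in these arrays when the lists were written.

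**Figure D4:**
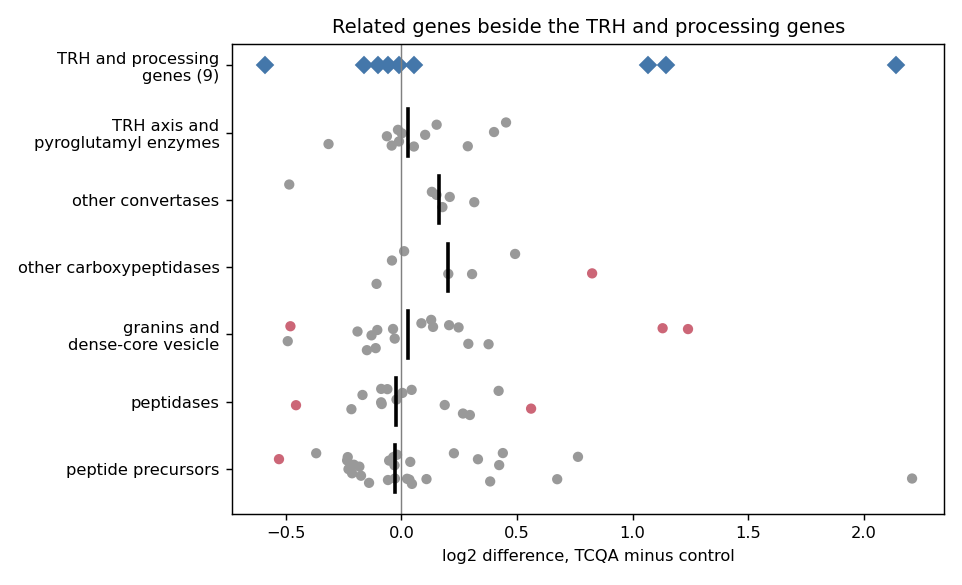
Log2 difference of TCQA minus control (x axis) for the 9 measured genes (blue diamonds) and for each gene of 6 related lists (dots; red, unadjusted limma p under 0.05; black line, list median). The list medians lie between -0.03 and 0.20; the far right dot among the precursors is Pmch at 2.21, which is high on 1 TCQA array.

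Genes with the most similar pattern over the 4 arrays were found by the root mean square difference of mean-centred log2 signals among 9925 genes. For Trh these were Ogn (0.352), Calb2 (0.412) and Uprt (0.413), a small proteoglycan, the calcium-binding protein calretinin and a gene named for uracil phosphoribosyltransferase. Ogn is on the meningeal list, of which all 10 genes had a higher mean with TCQA, and Calb2 is on the olfactory bulb and thalamic lists. For Pcsk1n they were Cbln1 (0.053), a secreted synapse organiser, Lrtm2 (0.119), a leucine-rich repeat membrane protein, and Nab2 (0.136), a repressor that binds EGR transcription factors. Cbln1 had 9.02 and 8.74 with TCQA and 7.99 and 7.47 in control, with the same order of arrays as Pcsk1n. Each match rests on 4 arrays and is a description.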

How the data were processed

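Clariom S mouse arrays measured gene expression, with 2 in each group. The authors normalized the arrays with SST-RMA in the Transcriptome Analysis Console (version 4.0.2), per the labels' protocols, and deposited 1 log2 signal for each probe set. No genome build is named for the probe annotation. Titles gave the groups. Since no label states that each array was a separate mouse, p-values reflect spread among these samples alone, which may be technical.

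Control probe sets were set aside and 22206 gene probe sets were fitted with limma 3.58.1 in R 4.3.3 (lmFit, eBayes, two-sided, TCQA minus control, 2 residual degrees of freedom, Benjamini-Hochberg over all). The platform annotation, with symbols updated through gene IDs, named 19572 of them with 1 symbol and left 2634 unnamed. The brightest probe set stood for a symbol with several. Scripts were tested on simulated data. Alternatives left out each array and changed the normalization, moderation, dim filter and pairing.

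The genes described, the lists and the naming rule (all 10 members, up to 4 genes per related list past an unadjusted p of 0.05 without overlap, and the 3 most similar genes to Trh and Pcsk1n) were chosen with earlier results of these data known. Some genes beyond that rule were picked or named after their values were seen, as the text states. Of the markers set down to be given by value where needed, Hcrt, Avp and Ttr are given, while Tcf7l2, Pomc, Drd2 and Snap25 are not. The other genes are given for their role. The number of arrays limits the precision; the median SE of a difference was 0.20.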

Additional observations from a re-analysis of the deposited data

How the results depend on the processing

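The signs of the Trh, Trhr, Pcsk1n, Pcsk1 and Cpe differences held under all 7 alternatives that bear on a difference, and those of Trhde, Furin, Scg5 and Pam changed with at least 1 array left out. Centring each array on its median or quantile normalization moved the Trh difference to 2.13 at either setting. Leaving out 1 array gave 160 to 291 probe sets past the depositors' criterion, against 83 with all arrays, 25 without moderation and 42 with dim probe sets left out, where fewer were tested. Past the adjusted threshold there were 0 to 4: the 4 came without TCQA replicate 1 and were Pmch, Gh, Gabrq and an unnamed probe set, named here after their values were seen. Genes of the 6 related lists past an unadjusted p of 0.05 numbered 6 to 12. The cause of these changes was not tested. The dim filter kept probe sets whose higher group mean reached the median of all gene values, 7.15. That mark differs from the median of the negative controls, and a probe set could pass it through 1 group alone. The replicate numbers are shared between groups but nothing says that they pair arrays; the correlation over genes of replicate 1 minus replicate 2 between groups was 0.051, and with the replicate block 92 probe sets met the criterion. Each member had 1 probe set, so the choice between probe sets was not run. Trh in control, Trhr on 3 arrays, and many precursors and hypothalamic markers lay under the median negative control, where the size of a difference is least certain.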
